A study of Mus musculus with 4 samples.

Results

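The *Id* genes and the bone morphogenetic protein (BMP) pathway were described through 10 of the 27998 genes counted in satellite cells of 4 mouse strains. The members, chosen by name, were the ligand gene *Bmp4*, the receptor genes *Bmpr1a* and *Bmpr2*, the signal transducer gene *Smad1*, the inhibitory Smad genes *Smad6* and *Smad7*, and the targets *Id1*, *Id2*, *Id3* and *Id4*. Single cells from hindlimb muscle, sorted as positive for α7-integrin and VCAM1 and negative for Cd11b, Sca1, Cd45 and Cd31, were measured by 10x Genomics 3′ RNA sequencing in 1 library per strain, each from 2 pooled mice. The B10 library came from C57/Bl10ScsSn mice of 15 weeks and is the wildtype counterpart of *mdx* (C57BL/10ScSn-Dmdmdx, 11 weeks). DBA (DBA/2, 13 weeks) is the wildtype counterpart of D2-*mdx* (D2.B10-Dmdmdx, 14 weeks). *mdx* and D2-*mdx* carry the same *Dmd* allele, the mouse model of Duchenne muscular dystrophy (DMD), in every cell and on different backgrounds. Age differs between the strains, so age and strain cannot be told apart. Expression is given as CPM: the unique molecular identifiers (UMIs) of a gene in the cells of a class, divided by all UMIs of those cells and scaled to counts per 1000000. With 1 library per strain no strain was replicated, so no comparison was tested and no p-value is given. Parentheses hold exact 95% intervals (Poisson for CPM, Clopper-Pearson for shares of cells, binomial for the ratio of a pair of counts), which cover counting error only and not the spread between mice. A difference is called past 2-fold where the CPM ratio is above 2 or below its inverse and 1 library of the pair has at least 10 CPM.

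BMP ligands such as BMP4 bind pairs of type I receptors, of which BMPR1A is one, and type II receptors such as BMPR2. The activated type I receptor phosphorylates SMAD1 and its relatives, which enter the nucleus with SMAD4 and induce the *Id* genes together with *Smad6* and *Smad7*, whose products restrain the pathway. Id proteins have a helix-loop-helix domain but no DNA-binding region, hold E proteins away from basic helix-loop-helix factors such as MYOD1, and are known in muscle for delaying myogenic differentiation and keeping satellite cells able to proliferate.

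The kept cells numbered 4581 in B10 against 6313 in *mdx*, and 3279 in DBA against 5756 in D2-*mdx*, with 37016795 to 52742197 UMIs per library, of which the 10 members took 0.122% to 0.279%. Pairs of libraries shared 3 to 8 cell barcodes. In the myogenic cells *Dmd* stood at 324 CPM in B10 and 120 in *mdx*, and at 287 in DBA and 94.4 in D2-*mdx*, in the direction of the labels. Clusters were matched to marker genes, and a class such as MuSC-like (muscle stem cell-like) only resembles the type it is named for. The MuSC-like cells numbered 4123, 3181, 2522 and 2863 in B10, *mdx*, DBA and D2-*mdx*, with all 8 satellite cell markers detected at summed levels of 4125 to 5083 CPM. Although the sort was meant to remove them, endothelial-like and white blood cell-like cells were present. A class was given a level in a library only with at least 50 cells there.

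The promoters of the members are shown first, since *Id1*, *Id2* and *Id3* were all higher in the MuSC-like cells of both dystrophic libraries. RefSeq windows of 250 bases before to 50 bases after a start on GRCm38.p6 were found for 8 of the 10 members, with none for *Id1* and *Smad7*. GGCGCC, the GC-rich letters known for binding SMAD1, was searched on both strands and is in 11.9% of all 32851 windows. CAGAC, a Smad-binding element whose reverse complement is GTCTG, is in 49.6% of them. The motifs do not overlap each other. GGCGCC was found in the windows of *Id2*, *Id4*, *Bmpr1a* and *Bmpr2*, and CAGAC in that of *Id3* alone. The windows of the members held 59.3% to 79.3% G and C, above the median of 52.7% over all windows. The shares over all windows were not matched for this. A match is a description of letters and not a binding site. In the sequences, printed 5′ to 3′ along the strand of the gene, capitals mark the motif matches.
*Id2*, chr12:25096306-25096335, minus strand, in an intron of GENCODE M21: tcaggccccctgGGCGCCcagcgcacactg
*Id3*, chr4:136143643-136143672, plus strand, within an exon: tgtcctcggcgtCAGACcagcctaaggaag
*Id3*, chr4:136143742-136143771, plus strand, within an exon: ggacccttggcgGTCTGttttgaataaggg
*Id4*, chr13:48260866-48261115, plus strand, upstream of the gene: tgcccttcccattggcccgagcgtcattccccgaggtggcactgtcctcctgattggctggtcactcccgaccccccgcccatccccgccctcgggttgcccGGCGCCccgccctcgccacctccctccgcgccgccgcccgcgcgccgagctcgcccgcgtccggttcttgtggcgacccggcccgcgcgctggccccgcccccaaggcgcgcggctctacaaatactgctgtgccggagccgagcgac
*Bmp4*, chr14:46390670-46390919, minus strand, upstream of the gene: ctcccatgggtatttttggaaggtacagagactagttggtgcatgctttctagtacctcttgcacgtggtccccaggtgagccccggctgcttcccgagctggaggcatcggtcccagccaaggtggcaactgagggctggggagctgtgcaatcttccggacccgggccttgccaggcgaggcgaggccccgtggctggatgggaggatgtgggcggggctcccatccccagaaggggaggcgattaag
*Id3* was printed as the member with the largest ratios in MuSC-like cells, and *Id4* as the member counted almost only in pericyte-like cells. *Bmp4* was printed as the ligand gene, highest in MuSC-like or immunomyoblast-like cells, and *Id2* as a member that was higher in both with the GC-rich letters. The 300-base window of *Bmp4* holds neither motif on either strand.

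*Id3*, *Id1* and *Id2* were higher in the MuSC-like cells of both dystrophic libraries than in their wildtype counterparts. *Id3* differed most, at 2.88-fold in *mdx* and 4.22-fold in D2-*mdx*. The genes of the receptors and of *Smad1* stayed within 2-fold in both comparisons. For *mdx* over B10, 8 of the 10 members reached the minimum of 10 CPM in a library and 1 of them (*Id3*) was past 2-fold higher, beside 2.97% of the 8358 genes compared. None was past 2-fold lower, beside 3.31% of genes. For D2-*mdx* over DBA, 5 of the 8 members with the minimum (*Id1*, *Id2*, *Id3*, *Bmp4* and *Smad7*) were past 2-fold higher, beside 3.66% of 8360 genes, and none was lower, beside 3.56%. *Id4* and *Smad6* did not reach the minimum in these cells. Marker sums of other cells went both ways in the dystrophic MuSC-like cells. The sum of 7 endothelial genes, most of it *Tek*, was lower in both comparisons. Those of vascular smooth muscle, glial and fibroblast or tenocyte genes were lower in *mdx* and higher in D2-*mdx*. Pericyte, Schwann cell, white blood cell, erythrocyte and mature fibre sums were higher in both. The sum of 5 erythrocyte genes was 24.3 CPM in B10 against 922 in *mdx*, and 326 in DBA against 1363 in D2-*mdx*, and that of 6 mature fibre genes 29.8 CPM in B10 against 67.7 in *mdx*, and 24.1 in DBA against 139.7 in D2-*mdx*, with no gene of either list at 0. Over the clusters of MuSC-like cells with at least 50 cells, the erythrocyte sum of *mdx* ranged from 25.4 to 30676 CPM. The part of these markers in the *Id* ratios was not tested. The median log2 ratio of all genes compared was -0.07 for *mdx* over B10 and -0.08 for D2-*mdx* over DBA.

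*Id3* (ENSMUSG00000007872, chromosome 4, 136143497 to 136145755, plus strand on GRCm38) encodes an inhibitor of the basic helix-loop-helix factors and is a rapid target of BMP signalling. Its level in MuSC-like cells was 994 CPM (984 to 1005) in B10 against 2860.2 (2837 to 2884) in *mdx*, and 507 (499 to 516) in DBA against 2139 (2117 to 2160.2) in D2-*mdx*. The dystrophic libraries lay above both wildtype libraries, with no overlap of intervals between any of the 4. The log2 ratio of *mdx* to B10 was 1.52 (1.51 to 1.54) and that of D2-*mdx* to DBA 2.08 (2.05 to 2.10). Within the wildtype backgrounds DBA stood below B10, with a log2 ratio of -0.97 (-1.0 to -0.94), and D2-*mdx* stayed below *mdx*, at -0.42 (-0.44 to -0.40).

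*Id1* (ENSMUSG00000042745, chromosome 2, 152736251 to 152737410, plus strand), the *Id* gene most often used as a readout of BMP signalling, had 404 CPM (397 to 410.4) in B10 against 644 (632 to 655) in *mdx*, and 157 (153 to 162) in DBA against 466 (456 to 477) in D2-*mdx*. The order of the libraries was that of *Id3*, again without overlap of the intervals. The log2 ratio of *mdx* to B10 was 0.67 (0.64 to 0.71), below the 2-fold line, and that of D2-*mdx* to DBA 1.57 (1.51 to 1.62). The control libraries differed by more than *mdx* and B10 did, with *Id1* 2.57-fold lower in DBA than in B10 and a log2 ratio of -1.36 (-1.41 to -1.31).

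*Id2* (ENSMUSG00000020644, chromosome 12, 25093799 to 25097140, minus strand), which also opposes differentiation in many lineages, had 118 CPM (114 to 121) in B10 against 219 (212 to 225) in *mdx*, and 67.6 (64.6 to 70.8) in DBA against 174 (168 to 180.4) in D2-*mdx*. The 4 libraries took the same order as for *Id1* and *Id3*. Its log2 ratio of *mdx* to B10 was 0.89 (0.83 to 0.95) and that of D2-*mdx* to DBA 1.37 (1.28 to 1.45). For DBA over B10 it was -0.80 (-0.88 to -0.72), so that of the members with the minimum only *Id1* and *Smad7* were past 2-fold lower in DBA, beside 1.83% of the 8345 genes compared. None was past 2-fold higher, beside 1.83% of genes.

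**Figure D1:**
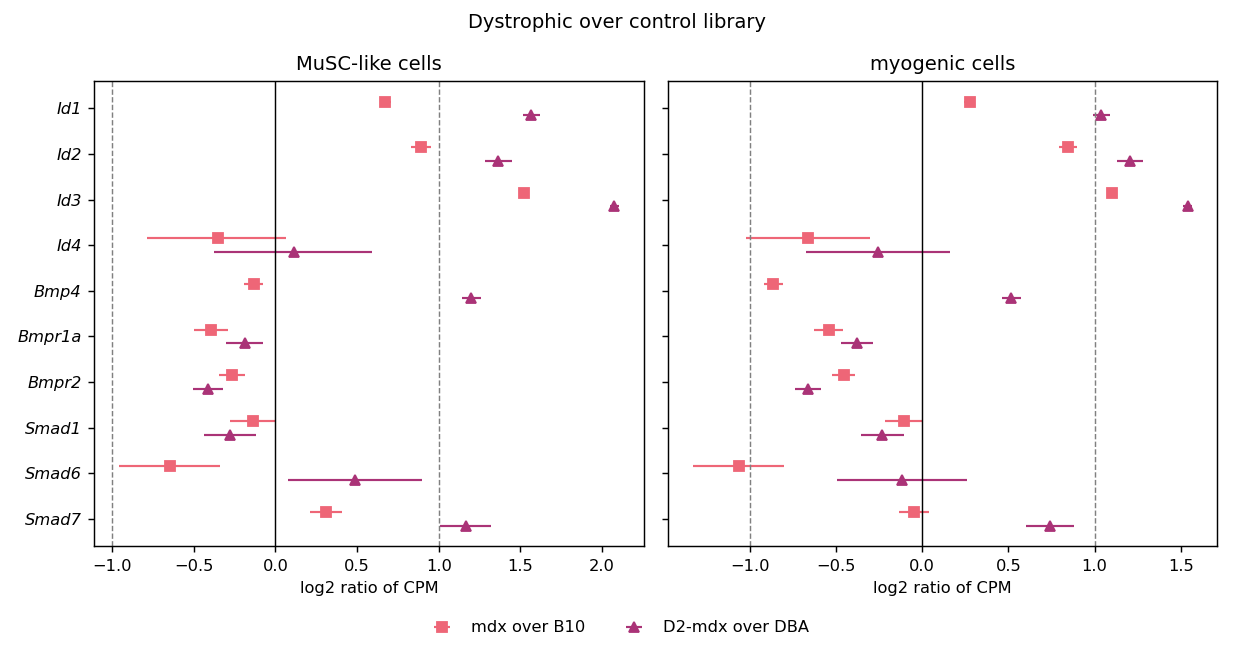
Log2 ratios of CPM for the 10 members, *mdx* over B10 (squares) and D2-*mdx* over DBA (triangles), in MuSC-like cells (left) and in all myogenic cells (right), with exact 95% counting intervals as bars and dashed lines at 2-fold. In MuSC-like cells *Id3* lies past the line in both comparisons, at 1.52 and 2.08, while *Bmp4* lies near 0 in *mdx* (-0.13) and past the line in D2-*mdx* (1.2).

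More MuSC-like cells carried *Id3*, and the cells that carried it held more of it. With every cell thinned to 3000 UMIs, at least 1 *Id3* UMI was found in 61.9% (60.4 to 63.4) in B10 against 84.6% (83.3 to 85.9) in *mdx*, and 45.7% (43.8 to 47.7) in DBA against 84.6% (83.2 to 85.9) in D2-*mdx* of MuSC-like cells. Unthinned, at median depths of 8300, 5631, 10164.5 and 5583 UMIs per cell in this order of libraries, the shares were 77.4% in B10 against 89.6% in *mdx*, and 66.8% in DBA against 91.2% in D2-*mdx*. Both dystrophic libraries were the shallower and still had the higher shares. The thinned cells of *mdx* held a median of 5 *Id3* UMIs and an upper quartile of 13, and those of D2-*mdx* a median of 4 and an upper quartile of 9. In B10 the median was 1 and the upper quartile 4, and in DBA 0 and 2. At least 10 *Id3* UMIs were present in 34.0% of *mdx* and 24.9% of D2-*mdx* cells but in 9.94% of B10 and 2.54% of DBA cells. The difference therefore ran through most of the distribution and was not held by a few cells. In thinning, 37 B10 cells were left out as too shallow and none of the other 3 libraries.

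**Figure D2:**
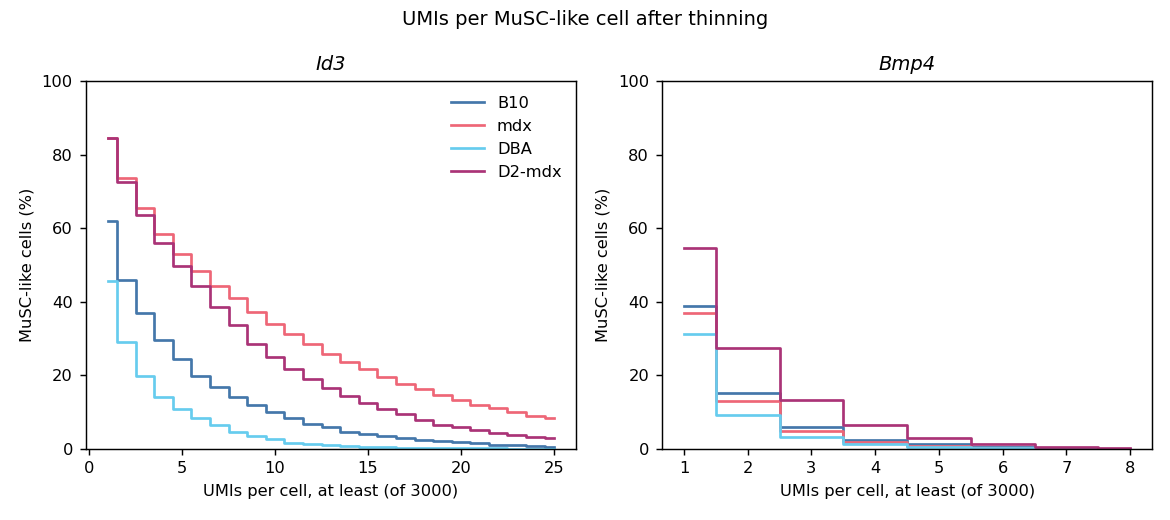
Share of MuSC-like cells (percent, vertical axis) with at least the number of UMIs on the horizontal axis, for *Id3* (left) and *Bmp4* (right), after thinning each cell to 3000 UMIs. The *Id3* curves of *mdx* and D2-*mdx* lie above those of B10 and DBA, and for *Bmp4* the D2-*mdx* curve lies above the other 3.

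*Id1* was found in 42.9% (41.4 to 44.4) in B10 against 51.6% (49.8 to 53.3) in *mdx*, and 23.8% (22.2 to 25.5) in DBA against 48.3% (46.5 to 50.2) in D2-*mdx* of thinned MuSC-like cells, and *Id2* in 22.5% (21.2 to 23.8) in B10 against 31.4% (29.8 to 33.0) in *mdx*, and 14.8% (13.4 to 16.2) in DBA against 29.3% (27.6 to 31) in D2-*mdx*. The order of the shares followed that of the CPM for both genes. Unthinned, *Id1* was found in 60.0% in B10 against 62.6% in *mdx*, and 44.6% in DBA against 62.8% in D2-*mdx*, and *Id2* in 40.1% in B10 against 43.3% in *mdx*, and 32.0% in DBA against 41.5% in D2-*mdx*. At unequal depth B10 and D2-*mdx* came within a few percentage points of each other for both, while the thinned shares kept them apart. Across the thinned cells of a library, the counts of *Id1* and *Id3* had a Spearman rho of 0.21 to 0.44, a weak relation in sparse counts of cells that share a library.

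The level of *Id1*, *Id2* and *Id3* depended on the cluster of MuSC-like cells. Cluster 0, led by *Nr4a1*, *Btg2*, *Zfp36* and *Fosb* and holding 61.8% to 70.8% of the MuSC-like cells of a library, had more of each than cluster 1. Cluster 1 held 21.3% to 29.2% and was led by *Neu1*, *Ryr3* and *Col19a1*. The summed level of 14 immediate-early genes, which respond within minutes to activation and to tissue dissociation, was 46313 to 65820 CPM in cluster 0 and 9411 to 16159 CPM in cluster 1. Over all MuSC-like cells it was 42736 CPM in B10 against 50740 in *mdx*, and 35785 in DBA against 54017 in D2-*mdx*. By this sum the dystrophic libraries also lay above the wildtype ones. Single genes were not all higher in *mdx*: *Fosb*, *Egr1*, *Nr4a1*, *Klf4* and *Zfp36* were lower there than in B10, and the rest were higher. All 14 were higher in D2-*mdx* than in DBA. The part of these genes in the *Id* ratios was not tested. The features that drew the clusters held 6 of the members (*Id1*, *Id2*, *Id3*, *Id4*, *Bmp4* and *Smad7*), so that a difference between clusters is a description.

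*Id1* stood at 505 CPM in B10 against 853 in *mdx*, and 195 in DBA against 547 in D2-*mdx* in cluster 0, and at 98.1 CPM in B10 against 114 in *mdx*, and 53.4 in DBA against 114 in D2-*mdx* in cluster 1. The ratio of the clusters was largest in *mdx*, 7.45-fold, and smallest in DBA, 3.65-fold. Within cluster 0 the log2 ratio of *Id1* between *mdx* and B10 was 0.76 (0.72 to 0.79), and between D2-*mdx* and DBA 1.49 (1.43 to 1.55). Within cluster 1 the values were 0.22 (0.07 to 0.38) and 1.10 (0.90 to 1.30). In the cells low in immediate-early genes, *Id1* thus differed little between *mdx* and B10, and remained past 2-fold in D2-*mdx*. Since *Id1*, *Id2* and *Id3* were among the features that drew the clusters, ratios within a cluster are a description too. They were not taken with these genes left out of the features.

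*Id3* was at 1209.8 CPM in B10 against 3734 in *mdx*, and 633 in DBA against 2565 in D2-*mdx* in cluster 0 and at 426 CPM in B10 against 749 in *mdx*, and 188 in DBA against 675 in D2-*mdx* in cluster 1. In cluster 0 its log2 ratio of *mdx* to B10 was 1.63 and that of D2-*mdx* to DBA 2.02, and in cluster 1 they were 0.81 (0.75 to 0.88) and 1.85 (1.75 to 1.94). Of the 3 genes *Id3* kept the largest excess of *mdx* over B10 in cluster 1. *Id2* had 131 CPM in B10 against 274 in *mdx*, and 76.7 in DBA against 201 in D2-*mdx* in cluster 0 and 91.3 CPM in B10 against 83.2 in *mdx*, and 47.6 in DBA against 95.7 in D2-*mdx* in cluster 1. In cluster 1 *Id2* showed no excess in *mdx*, with a log2 ratio of -0.13 (-0.31 to 0.04), and stayed higher in D2-*mdx*, at 1.01 (0.79 to 1.22). With cluster 1 alone, 0 members were past 2-fold for *mdx* over B10, and the share over all genes was not taken for this cluster.

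Cluster 6, whose leading genes include the Hedgehog targets *Hhip* and *Gli1*, had the most *Id1* of the MuSC-like clusters in the 3 libraries where it held enough cells, at 728 CPM in B10, and 358 in DBA against 948 in D2-*mdx*. In cluster 0 of the same libraries *Id1* was lower by intervals that do not overlap.

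**Figure D3:**
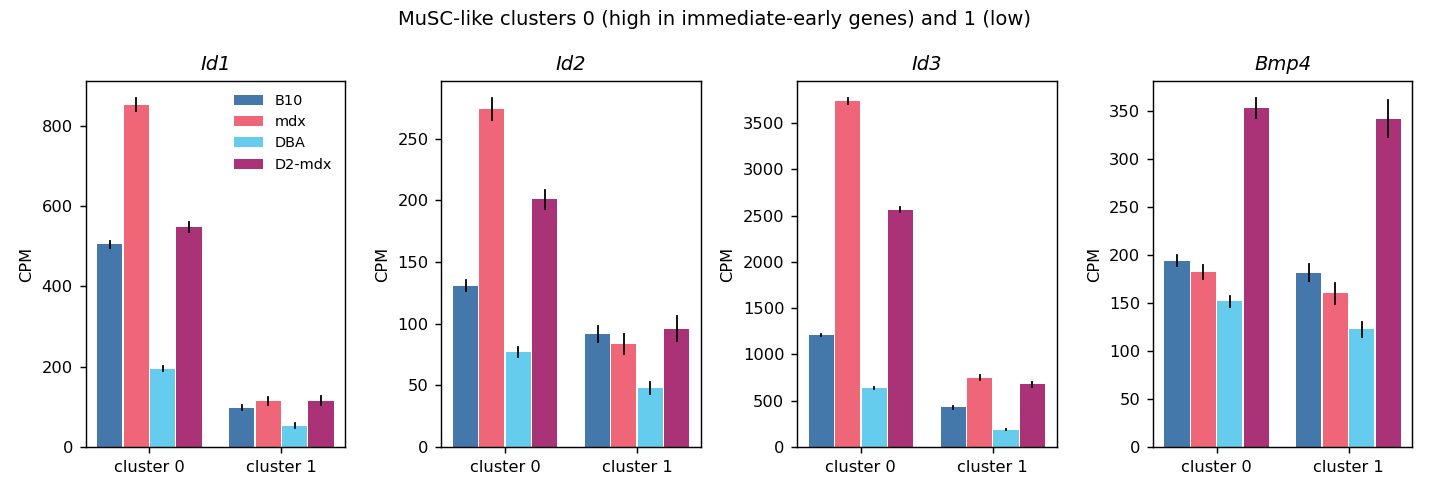
CPM (bars, from 0, with a scale for each gene) of *Id1*, *Id2*, *Id3* and *Bmp4* in MuSC-like cluster 0, high in immediate-early genes, and cluster 1, low in them, for the 4 libraries, with exact 95% Poisson intervals as black lines. *Id1* and *Id3* fall from cluster 0 to cluster 1 in every library, *Id2* falls most in *mdx*, and *Bmp4* moves least, for example from 353 to 342 CPM in D2-*mdx*.

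Among the myogenic states *Id3* was lower in cycling progenitor-like and differentiating myocyte-like cells than in MuSC-like cells of the same library. The direction of *Id1* and *Id2* in the cycling cells depended on the library. In cycling progenitor-like cells *Id3* was at 504 CPM in B10 against 836 in *mdx*, and 422 in DBA against 361 in D2-*mdx*. In *mdx* this was 3.42-fold below the MuSC-like cells of that library and in D2-*mdx* 5.92-fold, against 1.97-fold in B10 and 1.2-fold in DBA. *Id1* had log2 ratios to the MuSC-like cells of -0.20 (-0.33 to -0.08) in B10, -1.35 (-1.43 to -1.26) in *mdx* and -1.70 (-1.80 to -1.61) in D2-*mdx*, but was higher in the cycling cells of DBA, at 0.35 (0.15 to 0.54). *Id2* was at 87.6 CPM in B10 against 239 in *mdx*, and 61.9 in DBA against 162 in D2-*mdx*. Its log2 ratio to the MuSC-like cells was -0.43 (-0.68 to -0.18) in B10 and 0.13 (0.03 to 0.22) for *mdx*. On the other background it was -0.13 (-0.49 to 0.22) for DBA, within counting error, and -0.11 (-0.20 to -0.01) for D2-*mdx*. These rest on 114 cycling cells of B10, 415 of *mdx*, 72 of DBA and 518 of D2-*mdx*.

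Differentiating myocyte-like cells, which express *Myog*, had the lowest *Id3* of the myogenic classes in every library that gave a value, at 333 CPM in *mdx*, and 168 in DBA against 230.0 in D2-*mdx*. These levels were 8.60-fold, 3.01-fold and 9.30-fold below the MuSC-like cells of *mdx*, DBA and D2-*mdx*. *Id1* was at 219 CPM in *mdx*, and 71.3 in DBA against 115 in D2-*mdx*, and *Id2* at 77.2 CPM in *mdx*, and 27.0 in DBA against 35.4 in D2-*mdx*. All 3 genes were thus lower in these cells than in MuSC-like cells of the same library. *Smad1* went the other way, at 64.1 CPM in *mdx*, and 66.4 in DBA against 58.5 in D2-*mdx*, with log2 ratios to the MuSC-like cells of 0.99 (0.76 to 1.22), 0.97 (0.55 to 1.37) and 1.07 (0.79 to 1.35).

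The DMD-enriched-like cells, marked by *Cdkn1c*, *Postn* and *Col1a1*, numbered 912 in *mdx* and 574 in D2-*mdx*, and only 40 in B10 and 42 in DBA. They had 1771 CPM in *mdx* and 1206 in D2-*mdx* of *Id3*, below the MuSC-like cells of the same library but above the MuSC-like cells of either wildtype library. *Id1* was at 396 CPM in *mdx* and 209 in D2-*mdx* and *Id2* at 216 CPM in *mdx* and 127 in D2-*mdx*. For *Id2* the log2 ratio to the MuSC-like cells was -0.02 (-0.09 to 0.05) in *mdx* and -0.45 (-0.56 to -0.34) in D2-*mdx*. Immunomyoblast-like cells, led by the interferon-induced *Ifit1* and *Ifit3*, were numerous enough in B10 and *mdx* alone, with 1226 CPM in B10 and 1894 in *mdx* of *Id3* and 523 CPM in B10 and 399 in *mdx* of *Id1*.

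Outside the myogenic cells *Id1* was highest in endothelial-like cells, where BMP signalling through ALK1 is known to maintain it. There *Id1* was at 1396 CPM (1347 to 1446) in *mdx* and 669.9 (614 to 730.0) in D2-*mdx*, above the MuSC-like cells of the same libraries, and *Id3* at 1519 CPM (1468 to 1571) in *mdx* and 894 (829 to 963) in D2-*mdx*. In MuSC-like cells 7 endothelial markers summed to 28.8 to 53.9 CPM over the 4 libraries, with *Cldn5* at 0 in B10. Most of the sum was *Tek*, at 49.6 CPM in B10 against 19.1 in *mdx*, and 51.3 in DBA against 20.4 in D2-*mdx*. Each of the other markers was higher in both dystrophic libraries than in their counterparts, at 3.60 CPM or less. In *mdx* and D2-*mdx* the sum is 0.459% and 0.453% of that in endothelial-like cells, while *Id1* stood at 46.1% and 69.6% of its endothelial level. The part of endothelial RNA in the *Id1* ratios was not tested. *Id2*, known for its role in lymphocyte and dendritic cell development, was highest in white blood cell-like cells, at 307 CPM (274 to 342) in *mdx* and 375 (348 to 404) in D2-*mdx*. In MuSC-like cells 8 white blood cell markers summed to 1.95 CPM in B10 against 25.4 in *mdx*, and 8.60 in DBA against 123 in D2-*mdx*. *Ptprc* was at 0 in B10 and *S100a9* at 0 in *mdx*. In *mdx* and D2-*mdx* these sums are 0.123% and 0.343% of the level in the white blood cell-like cells, against 71.2% and 46.4% for *Id2*.

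**Figure D4:**
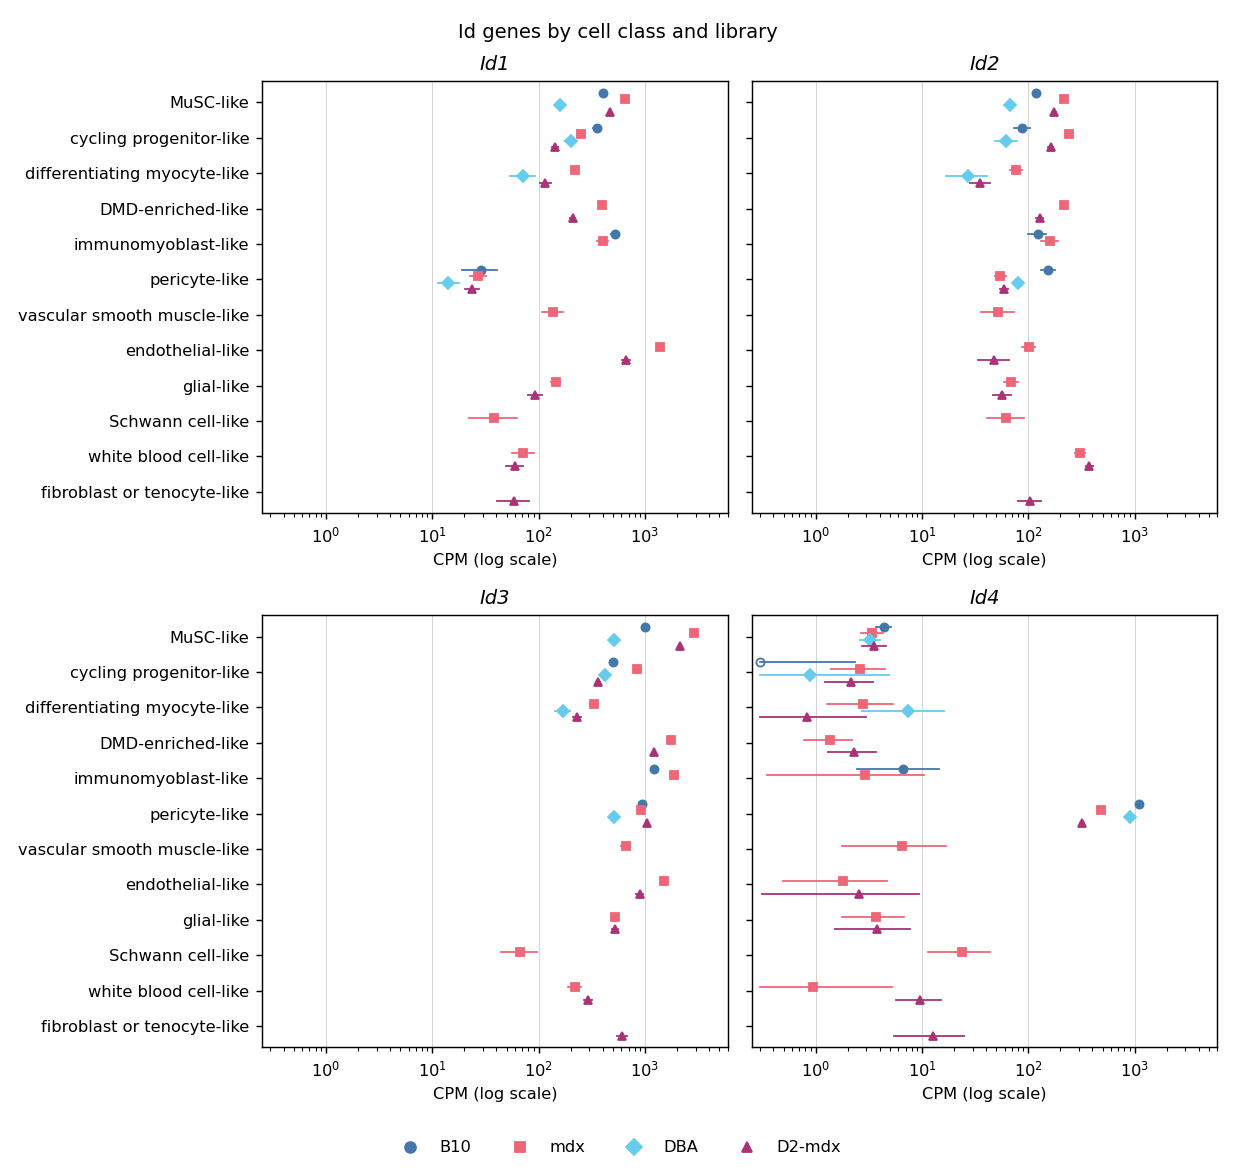
CPM (log scale) of *Id1*, *Id2*, *Id3* and *Id4* in the 12 cell classes, 1 point for each library with at least 50 cells of the class, with exact 95% Poisson intervals as bars and open symbols at the left edge for 0 UMIs. *Id4* stands at 319 to 1094 CPM in pericyte-like cells and at 24.0 CPM or less in every other class, whereas *Id3* is spread over all classes.

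*Id4* (ENSMUSG00000021379, chromosome 13, 48261228 to 48266026, plus strand), an *Id* family member that in some tissues counteracts the other Id proteins, was counted almost only in pericyte-like cells. Its level there was 1094 CPM (1032 to 1159) in B10 against 484 (465 to 504) in *mdx*, and 894 (869.6 to 919) in DBA against 319 (306 to 332) in D2-*mdx*. In the next class it was at most 24.0 CPM, in the Schwann cell-like cells of *mdx*. In pericyte-like cells thinned to 3000 UMIs, *Id4* was found in 80.0% (70.5 to 87.5) in B10 against 66.8% (62.9 to 70.5) in *mdx*, and 83.9% (80.3 to 87.0) in DBA against 53.5% (50.3 to 56.6) in D2-*mdx*. MuSC-like cells had 4.36 CPM in B10 against 3.41 in *mdx*, and 3.28 in DBA against 3.55 in D2-*mdx*, and 1.2% in B10 against 1.07% in *mdx*, and 1.07% in DBA against 1.01% in D2-*mdx* of thinned cells held a UMI. That is 0.398%, 0.704%, 0.367% and 1.11% of the pericyte-like level in B10, *mdx*, DBA and D2-*mdx*, and 7 pericyte markers stood at 0.302%, 0.440%, 0.381% and 0.640% of theirs. The share of *Id4* lay above that of the marker sum in 3 of the 4 libraries and below it in DBA. Most of the sum in pericyte-like cells was *Rgs5*, at 6850 CPM in B10 against 7209 in *mdx*, and 7525 in DBA against 8178 in D2-*mdx*. Of the 7 markers, *Cspg4* alone was higher in MuSC-like than in pericyte-like cells, in DBA (3.24 against 1.24 CPM) and D2-*mdx* (5.07 against 1.57). The shares of single markers were not taken. How much of the *Id4* in MuSC-like cells is free RNA was not tested.

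In pericyte-like cells *Id4* was lower in both dystrophic libraries. The log2 ratio of *mdx* to B10 was -1.18 (-1.28 to -1.07) and that of D2-*mdx* to DBA -1.49 (-1.56 to -1.42). For *mdx* over B10, 4 of the 10 members, all with the minimum there (*Id2*, *Id4*, *Bmp4* and *Smad6*), were past 2-fold lower, beside 5.83% of the 8956 genes compared, and none was higher, beside 2.04%. For D2-*mdx* over DBA 2 of 9 (*Id4* and *Bmp4*) were past 2-fold lower, beside 3.71% of 8755 genes, and 1 (*Id3*) was past 2-fold higher, beside 2.28%. *Id3* was at 938 CPM in B10 against 913 in *mdx*, and 513 in DBA against 1049 in D2-*mdx*, with log2 ratios of -0.04 (-0.14 to 0.06) and 1.03 (0.97 to 1.09). *Id2* was at 154 CPM in B10 against 54.7 in *mdx*, and 79.5 in DBA against 59.3 in D2-*mdx*. *Smad6* rested on 15 UMIs in B10 and 10 in *mdx*, so that its log2 ratio of -2.84 (-4.15 to -1.59) has a wide interval. B10 gave 97 pericyte-like cells, against 483 to 978 in the other libraries.

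*Bmp4* (ENSMUSG00000021835, chromosome 14, 46383520 to 46390669, minus strand), the only ligand gene among the members, was highest in MuSC-like cells in *mdx*, DBA and D2-*mdx*. In *mdx* and DBA the interval overlapped that of the next class, immunomyoblast-like at 147 CPM and cycling progenitor-like at 131 CPM. In B10 the immunomyoblast-like cells were highest, at 262 CPM. The MuSC-like level was 194 CPM (189.6 to 199) in B10 against 177 (171 to 183) in *mdx*, and 152 (148 to 157) in DBA against 350.4 (342 to 359) in D2-*mdx*. D2-*mdx* stood above the other 3 libraries, which lay between 152 and 194 CPM. The log2 ratio of *mdx* to B10 was -0.13 (-0.19 to -0.07) and that of D2-*mdx* to DBA 1.2 (1.14 to 1.26). When the cells were clustered without integration they were -0.65 and 0.88, the latter under 2-fold. That clustering named no DMD-enriched-like or immunomyoblast-like cluster, so its MuSC-like cells are another set. At least 1 UMI was found in 38.8% (37.3 to 40.3) in B10 against 36.9% (35.2 to 38.6) in *mdx*, and 31.3% (29.5 to 33.1) in DBA against 54.5% (52.6 to 56.3) in D2-*mdx* of thinned MuSC-like cells. Unlike *Id1*, *Id2* and *Id3*, *Bmp4* differed little between cluster 0 (194 CPM in B10 against 182 in *mdx*, and 152 in DBA against 353 in D2-*mdx*) and cluster 1 (181 CPM in B10 against 160.0 in *mdx*, and 123 in DBA against 342 in D2-*mdx*).

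*Bmp4* was lower in each later myogenic state of the dystrophic libraries. Cycling progenitor-like cells had 139 CPM in B10 against 40.4 in *mdx*, and 131 in DBA against 59.2 in D2-*mdx*, which is 4.38-fold and 5.92-fold below the MuSC-like cells in *mdx* and D2-*mdx*. In B10 and DBA the cycling cells kept most of it, with log2 ratios to the MuSC-like cells of -0.48 (-0.68 to -0.28) and -0.22 (-0.47 to 0.02). DMD-enriched-like cells had 38.4 CPM in *mdx* and 92.9 in D2-*mdx*, and differentiating myocyte-like cells 13.1 CPM in *mdx*, and 75 in DBA against 50.3 in D2-*mdx*. Over all myogenic cells *Bmp4* was at 193 CPM in B10 against 106 in *mdx*, and 149.9 in DBA against 215 in D2-*mdx*. The log2 ratio there was -0.86 (-0.92 to -0.81) between *mdx* and B10 but 0.52 (0.46 to 0.57) between D2-*mdx* and DBA, signs that are opposite in the 2 backgrounds. The difference between the 2 ratios was not tested. MuSC-like cells made up 93.3% of myogenic cells in B10 against 66% in *mdx*, and 93.4% in DBA against 68.4% in D2-*mdx*. With each class weighted by its share of UMIs in the control library, an alternative chosen after the values were seen, the log2 ratios were -0.20 and 1.12. When cells from 500 genes upward were kept, without an upper limit, they were -1.06 and -0.01.

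Outside the myogenic cells *Bmp4* was lower than in MuSC-like cells. Pericyte-like cells had 26.5 CPM in B10 against 13.1 in *mdx*, and 52.9 in DBA against 16.3 in D2-*mdx*, with DBA above the others and log2 ratios of -1.01 (-1.67 to -0.32) to B10 in *mdx* and -1.70 (-2.02 to -1.39) to DBA in D2-*mdx*. These levels are 13.7%, 7.42%, 34.7% and 4.64% of the MuSC-like level in B10, *mdx*, DBA and D2-*mdx*. In the same order *Pax7*, the satellite cell marker that pericytes should lack, stood at 5.12%, 1.73%, 3.53% and 2.37% of its MuSC-like level, below *Bmp4* in each library. The 8 satellite cell markers together stood at 14.4%, 15.7%, 13.6% and 16.2%, of which *Des*, known in pericytes too, was at 77.2% to 113%. The part of free RNA in the pericyte-like *Bmp4* ratios was not tested. Glial-like cells had 42.3 CPM in *mdx* and 73.4 in D2-*mdx* and endothelial-like cells 41.4 CPM in *mdx* and 56.7 in D2-*mdx*. The glial-like levels were 23.9% and 20.9% of the MuSC-like level in *mdx* and D2-*mdx*, beside 17.1% and 18.8% for *Pax7*. The endothelial-like levels were 23.4% and 16.2%, beside 3.30% and 3.74% for *Pax7*. The part of free RNA in these levels was not tested. Genes annotated on the opposite strand overlap *Bmp4*, *Id4* and *Bmpr1a*, and the strand setting of the counting is not given in the sources used here.

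The receptor genes stayed within 2-fold in the MuSC-like cells of both comparisons. *Bmpr1a* (ENSMUSG00000021796, chromosome 14, 34410734 to 34503341, minus strand) encodes a type I receptor and had 74.3 CPM (71.6 to 77.2) in B10 against 56.5 (53.3 to 60.0) in *mdx*, and 66.5 (63.5 to 69.6) in DBA against 58.3 (54.8 to 62.0) in D2-*mdx* in MuSC-like cells. Its log2 ratio of *mdx* to B10 was -0.39 (-0.50 to -0.29) and that of D2-*mdx* to DBA -0.19 (-0.30 to -0.08), with B10 above the other 3 libraries. Pericyte-like cells had the most in every library, at 104 CPM in B10 against 87.9 in *mdx*, and 109 in DBA against 93.4 in D2-*mdx*. Endothelial-like cells had the least, at 3.19 CPM (1.28 to 6.57) in *mdx* and 6.44 (2.09 to 15.0) in D2-*mdx*, although in D2-*mdx* the interval reaches that of the white blood cell-like cells.

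*Bmpr2* (ENSMUSG00000067336, chromosome 1, 59763400 to 59879014, plus strand) encodes the type II receptor for BMPs and had 110.4 CPM (107 to 114) in B10 against 91.8 (87.6 to 96.1) in *mdx*, and 111 (107 to 115) in DBA against 83.0 (78.9 to 87.4) in D2-*mdx* in MuSC-like cells. The wildtype libraries gave no difference beyond counting error, with a log2 ratio of DBA over B10 of 0.00 (-0.07 to 0.07), and each dystrophic library lay below its counterpart, at -0.27 (-0.35 to -0.19) and -0.41 (-0.50 to -0.32). In contrast to *Bmpr1a*, *Bmpr2* was high in endothelial-like cells, at 196 CPM in *mdx* and 165 in D2-*mdx*. In cycling progenitor-like cells it was at 101 CPM in B10 against 49.8 in *mdx*, and 96.3 in DBA against 34.4 in D2-*mdx*, past 2-fold lower in both dystrophic libraries, with log2 ratios of -1.02 (-1.31 to -0.72) and -1.49 (-1.82 to -1.15).

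*Smad1* (ENSMUSG00000031681, chromosome 8, 79338395 to 79399518, minus strand), the receptor-regulated Smad among the members, had 35.5 CPM (33.6 to 37.5) in B10 against 32.3 (29.8 to 34.9) in *mdx*, and 33.8 (31.6 to 36.0) in DBA against 27.8 (25.4 to 30.4) in D2-*mdx* in MuSC-like cells, values within 2-fold of each other. It was highest in endothelial-like cells, at 189 CPM (171 to 208) in *mdx* and 283 (247 to 323) in D2-*mdx*, where D2-*mdx* lay above *mdx* while *Id1* and *Id3* were lower in D2-*mdx* than in *mdx*, at log2 ratios of -1.06 (-1.20 to -0.92) and -0.76 (-0.88 to -0.65).

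*Smad7* (ENSMUSG00000025880) encodes an inhibitory Smad that acts on the BMP and TGF-β receptors. Its level in MuSC-like cells was 57.4 CPM (54.9 to 59.9) in B10 against 71.0 (67.3 to 74.8) in *mdx*, and 21.1 (19.4 to 22.9) in DBA against 47.3 (44.2 to 50.6) in D2-*mdx*. DBA lay below the other libraries, by 2.72-fold against B10. The log2 ratio of *mdx* to B10 was 0.31 (0.21 to 0.41) and that of D2-*mdx* to DBA 1.17 (1.01 to 1.32). In the clustering without integration, where the MuSC-like cells are another set, the latter was 0.91 and so under 2-fold. Like *Id1*, *Id2* and *Id3*, *Smad7* was higher in cluster 0 than in cluster 1, with 61.3 CPM in B10 against 81.0 in *mdx*, and 22.9 in DBA against 52.5 in D2-*mdx*. In cluster 1 it was at 41.7 CPM in B10 against 37.5 in *mdx*, and 14.6 in DBA against 27.0 in D2-*mdx*. Endothelial-like cells had 159 CPM in *mdx* and 99.2 in D2-*mdx* and pericyte-like cells 88.0 CPM in B10 against 91.7 in *mdx*, and 84.9 in DBA against 60.6 in D2-*mdx*.

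*Smad6* (ENSMUSG00000036867, chromosome 9, 63953076 to 64022059, minus strand), the inhibitory Smad that acts mainly on the BMP branch, was low in all classes. MuSC-like cells had 9.46 CPM (8.49 to 10.5) in B10 against 6.06 (5.02 to 7.25) in *mdx*, and 3.93 (3.23 to 4.75) in DBA against 5.52 (4.48 to 6.72) in D2-*mdx*, with B10 above the other 3 libraries. Over the myogenic cells it was at 9.10 CPM in B10 against 4.36 in *mdx*, and 3.89 in DBA against 3.58 in D2-*mdx*, a log2 ratio of -1.06 (-1.33 to -0.80) for *mdx* over B10 that lies past 2-fold but under the minimum of 10 CPM.

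**Figure D5:**
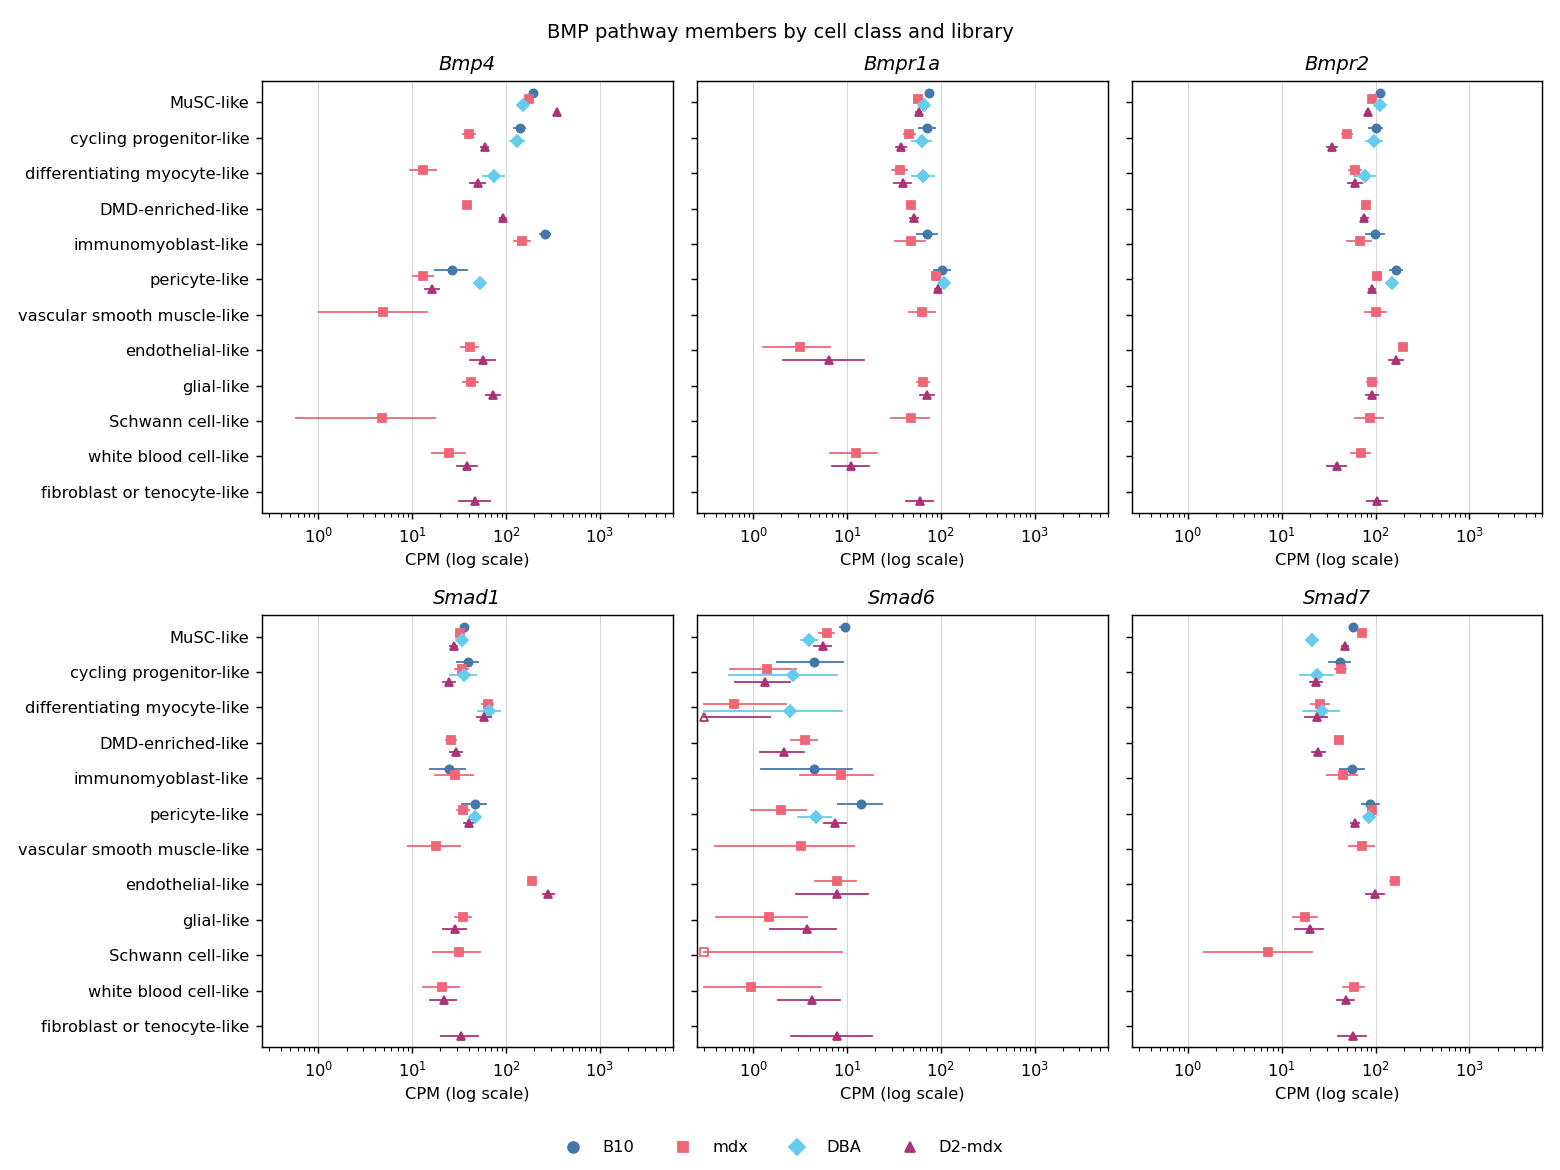
CPM (log scale) of *Bmp4*, *Bmpr1a*, *Bmpr2*, *Smad1*, *Smad6* and *Smad7* in the 12 cell classes, 1 point for each library with at least 50 cells of the class, with exact 95% Poisson intervals as bars and open symbols at the left edge for 0 UMIs. *Bmp4* is highest in MuSC-like or immunomyoblast-like cells in each library, *Bmpr1a* lowest in endothelial-like cells, where *Bmpr2*, *Smad1* and *Smad7* are high.

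Over all myogenic cells *Id1*, *Id2* and *Id3* kept their direction at smaller ratios. For *mdx* over B10, 1 of the 8 members with the minimum (*Id3*) was past 2-fold higher, beside 4.71% of the 8478 genes compared, and none was lower, beside 5.17%. For D2-*mdx* over DBA, 3 of 8 (*Id1*, *Id2* and *Id3*) were past 2-fold higher, beside 5.83% of 8503 genes, and none was lower, beside 5.86%. *Id3* was at 968 CPM in B10 against 2073 in *mdx*, and 493 in DBA against 1436 in D2-*mdx*, with log2 ratios of 1.10 (1.08 to 1.12) and 1.54 (1.52 to 1.57). *Id1* was at 401 CPM in B10 against 485 in *mdx*, and 156 in DBA against 319.9 in D2-*mdx*, with 0.28 (0.24 to 0.31) and 1.04 (0.99 to 1.09). When cells from 500 genes upward were kept without an upper limit, *Id3* in *mdx* (0.94) and *Id1* in D2-*mdx* (0.67) came under 2-fold. Of the 3 genes *Id2* moved least between the MuSC-like and the myogenic cells, with 0.85 (0.80 to 0.90) and 1.21 (1.13 to 1.28). *Smad7*, at 56.2 CPM in B10 against 54.4 in *mdx*, and 21.4 in DBA against 35.7 in D2-*mdx*, was even between *mdx* and B10, at -0.05 (-0.13 to 0.04), and higher in D2-*mdx*, at 0.74 (0.60 to 0.88).

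In the cycling progenitor-like cells the members split. *Id2* was past 2-fold higher in both comparisons, the only one of the 8 members with the minimum, beside 7.69% of 8453 genes for *mdx* over B10 and 7.81% of 8421 genes for D2-*mdx* over DBA. Its log2 ratios were 1.45 (1.19 to 1.71) and 1.39 (1.04 to 1.76). *Bmp4* and *Bmpr2* were past 2-fold lower in both, beside 11.8% and 17% of genes, shares at which a low member stands out less. The median of all genes was -0.08 for *mdx* over B10 and -0.20 for D2-*mdx* over DBA. *Id3* was higher in *mdx*, at 0.73 (0.62 to 0.84), and lower in D2-*mdx*, at -0.22 (-0.37 to -0.08). *Id1*, at 351 CPM in B10 against 253 in *mdx*, and 201 in DBA against 143 in D2-*mdx*, was lower in both, at -0.47 (-0.62 to -0.33) and -0.48 (-0.69 to -0.27).

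Of the other genes of the pathway, 70 were listed by role, together with 14 immediate-early genes. Over the myogenic cells 6 of the 70 were past 2-fold in each comparison, in each case 5 lower and 1 higher. Many of the 70 were under the minimum and could not be called. The 6 of 70 is therefore not to be set against the shares of all genes, which are over genes with the minimum. These shares were 4.71% higher and 5.17% lower for *mdx* over B10, and 5.83% and 5.86% for D2-*mdx* over DBA. The lower genes were mainly antagonists that hold BMP ligands outside the cell, of which 8 of 16 reached the minimum. Of these 8, 3 were past 2-fold lower in both comparisons, beside 5.17% of genes for *mdx* over B10 and 5.86% for D2-*mdx* over DBA. None was higher, beside 4.71% and 5.83%. In MuSC-like cells 3 of 8 were lower for *mdx* over B10, beside 3.31% of genes. For D2-*mdx* over DBA 2 were lower, beside 3.56%, and 1 higher, beside 3.66%. *Chrdl2*, a chordin-like ligand binder, was at 375 CPM in B10 against 89.8 in *mdx*, and 310.4 in DBA against 121 in D2-*mdx*. *Chrd*, which encodes chordin, was at 13.0 CPM in B10 against 3.54 in *mdx*, and 12.6 in DBA against 3.66 in D2-*mdx*. *Htra1*, a secreted protease that binds TGF-β family ligands, was at 43.7 CPM in B10 against 16.0 in *mdx*, and 55.2 in DBA against 21.6 in D2-*mdx*. All 3 were lower in both dystrophic libraries, with log2 ratios for *Chrdl2* of -2.06 (-2.11 to -2.01) and -1.36 (-1.42 to -1.31). In MuSC-like cells, a smaller share of the myogenic cells in the dystrophic libraries, the *Chrdl2* ratios were -1.32 (-1.38 to -1.26) and -0.56 (-0.62 to -0.51), the latter within 2-fold. The higher antagonist there, named after its values were seen, was *Fstl3*, which encodes a follistatin-like binder of activins, at 6.63 CPM in DBA and 14.5 in D2-*mdx*. The median over the 8 antagonists was -0.88 for *mdx* over B10 and -0.73 for D2-*mdx* over DBA, beside -0.03 and -0.07 over all genes. Within MuSC-like cells the medians were -0.59 and -0.34.

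All 10 listed intracellular inhibitors had the minimum over the myogenic cells. For *mdx* over B10, 2 of them (*Tob2* and *Sik1*) were past 2-fold lower, beside 5.17% of genes. For D2-*mdx* over DBA, 1 (*Tob2*) was, beside 5.86%. None was higher, beside 4.71% and 5.83%. *Tob2*, of the antiproliferative TOB family, was at 104 CPM in B10 against 33.7 in *mdx*, and 80.0 in DBA against 27.7 in D2-*mdx*. *Sik1*, a kinase gene induced by TGF-β and by cyclic AMP, was at 144 CPM in B10 against 64.4 in *mdx*. It was at 75.8 in DBA against 48.7 in D2-*mdx*, and so past 2-fold lower in *mdx* alone. In MuSC-like cells *Sik1* was within 2-fold in both comparisons. It was there at 146 CPM in B10 against 91.2 in *mdx*, and 77.5 in DBA against 71.6 in D2-*mdx*. *Tob2* stayed past 2-fold lower there, at 105 CPM against 42.4, and 81.1 against 37.1, in the same order. It was the only 1 of the 10 inhibitors past 2-fold there, beside 3.31% and 3.56% of genes lower. The medians of the 10 there were -0.37 for *mdx* over B10 and 0.00 for D2-*mdx* over DBA. Over the myogenic cells *Pmepa1*, the highest gene of this list, was at 602 CPM in B10 against 435 in *mdx*. It was at 499.96 in DBA against 488 in D2-*mdx*, and so within 2-fold in both comparisons. Of the 6 receptors and co-receptors with the minimum, 1 was past 2-fold, *Neo1*, which encodes the receptor neogenin, at 40.5 CPM in B10 against 23.2 in *mdx*, and 58.7 in DBA against 24.8 in D2-*mdx*, and in D2-*mdx* over DBA only, beside 5.86% of genes lower. The list medians were -0.28 for *mdx* over B10 and -0.08 for D2-*mdx* over DBA. In MuSC-like cells none of this list was past 2-fold, with *Neo1* at 60.4 CPM in DBA against 32.0 in D2-*mdx*. The medians there, over the 7 and 8 genes with the minimum, were 0.27 and 0.36, beside -0.07 and -0.08 over all genes. These sets of genes differ from the 6 over the myogenic cells. The list leaves out the members *Bmpr1a* and *Bmpr2*, both lower in the MuSC-like cells of both comparisons. Over the myogenic cells the co-receptor gene *Rgma* was at 102 CPM in B10 against 78.5 in *mdx*, and 84.0 in DBA against 68.2 in D2-*mdx*, and *Smad4*, the common partner of the receptor-regulated Smads, at 109 CPM in B10 against 123 in *mdx*, and 105 in DBA against 83.8 in D2-*mdx*. *Bmp2*, the highest of the other 13 ligand genes, was at 11.2 CPM in B10 against 9.28 in *mdx*, and 9.90 in DBA against 5.21 in D2-*mdx*, and was the only one of them to reach the minimum over the myogenic cells. *Bmp2* did so for *mdx* over B10 alone, so none of the 13 could be called for D2-*mdx* over DBA. In each comparison 2 of the 3 other Smads and 4 of the 8 listed BMP targets had the minimum. None of these, nor *Bmp2* for *mdx* over B10, was past 2-fold. The highest of the listed targets was *Zeb1*, at 179 CPM in B10 against 146 in *mdx*, and 133 in DBA against 116 in D2-*mdx*.

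Among the partners of the Id proteins *Myog*, the differentiation factor, was past 2-fold higher in both comparisons, at 9.33 CPM in B10 against 316 in *mdx*, and 17.7 in DBA against 261 in D2-*mdx*. It was the only one past 2-fold higher of the 10 partners with the minimum, beside 4.71% and 5.83% of genes. None was lower, beside 5.17% and 5.86%. *Myog* marks the differentiating myocyte-like cells, and these numbered 36 in B10 and 231 in *mdx*, and 52 in DBA and 204 in D2-*mdx*. In MuSC-like cells *Myog* was at 0.47 CPM in B10 against 5.90 in *mdx*, under the minimum. There it was at 0.36 in DBA against 11.5 in D2-*mdx*, past 2-fold higher, beside 3.66% of genes. *Tcf4*, an E protein gene and the highest of the list, was at 760.3 CPM in B10 against 529 in *mdx*, and 684 in DBA against 452 in D2-*mdx*. Of the 14 immediate-early genes, *Fosb*, *Nr4a1* and *Zfp36* were past 2-fold lower in *mdx* over the myogenic cells, beside 5.17% of genes. In MuSC-like cells, where the *Id3* ratios were larger, none of the 14 was past 2-fold lower in either comparison, beside 3.31% and 3.56% of genes. The medians there were 0.35 for *mdx* over B10 and 0.49 for D2-*mdx* over DBA. In D2-*mdx* 4 of the 14 were past 2-fold higher there, beside 3.66% of genes. Over the myogenic cells *Fosb* was at 3357 CPM in B10 against 1507 in *mdx*, and 2902 in DBA against 1922 in D2-*mdx*, *Nr4a1* at 274 CPM in B10 against 124 in *mdx*, and 131 in DBA against 112 in D2-*mdx* and *Zfp36* at 837 CPM in B10 against 392 in *mdx*, and 595 in DBA against 420.0 in D2-*mdx*. *Atf3*, at 469 CPM in B10 against 489 in *mdx*, and 193 in DBA against 399.9 in D2-*mdx*, was past 2-fold higher in D2-*mdx*, beside 5.83% of genes. *Fos* was at 8761 CPM in B10 against 8004 in *mdx*, and 7114 in DBA against 8909 in D2-*mdx* over the myogenic cells, and at 8916 CPM in B10 against 12518 in *mdx*, and 7408 in DBA against 14218 in D2-*mdx* in MuSC-like cells alone.

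The genes most like a member were taken by Pearson's r of log2(CPM + 10) over 28 sums of 12 classes and 4 libraries, which share libraries and cells, among 12538 genes. Among the genes closest to *Bmp4* were *Nppc* (0.91), *F2r* (0.90), *Edn3* (0.88) and *Slc43a3* (0.88), and *Nppc* was also a leading gene of the MuSC-like cells. *Id4* was closest to *Vsnl1* (0.98), *Adra2a* (0.98), *Abhd11os* (0.98), *Actg2* (0.97) and *Gm26903* (0.97), of which the first 4 were leading genes of the pericyte-like cluster. Among those closest to *Id1* were *Ramp2* (0.81), *Socs2* (0.79), *Sema6a* (0.78) and *Klf4* (0.78). *Id2* had *Pim1* (0.78), *Evi2a* (0.78), *Dusp5* (0.76), *Milr1* (0.75) and *Rnf19b* (0.71). *Id3* had *Tanc1* (0.75), *Lysmd3* (0.74), *Hspb1* (0.74), *Fam188b* (0.72) and *Thnsl2* (0.72), and *Smad6* had *Smarca2* (0.77), *Atp8b2* (0.75), *Il17rd* (0.73), *Gm12216* (0.73) and *Fignl2* (0.73). No other *Id* gene was among the 5 closest to *Id1*, *Id2* or *Id3*. Over the same sums *Id1* and *Id3* had an r of 0.54.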

How the data were processed

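The deposited files hold counts of UMIs per gene and barcode, which the authors made with Cell Ranger 3.0.1 on mm10, without normalization. Whether the barcodes were filtered before deposition, and whether strand was used in counting, is not given in the sources used here. The limits of the study were applied, 1000 to 5000 detected genes and no more than 8% mitochondrial UMIs per cell. Doublets were scored with Scrublet (scanpy 1.11.5, scikit-image 0.26.0) at 0.008 per 1000 cells, and the highest scores up to that rate, 2.70% to 5.34% of cells, were removed. Depth ranged from 6666 to 10434 median UMIs per kept cell.

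Integration used the canonical correlation method of Seurat 5.3.0 (R 4.3.3) with 2000 features and 30 dimensions, and cells were clustered at resolution 0.1, and the myogenic cells again at 0.2. A cluster took the name of the marker list with the highest mean standardized level, with at least 3 markers detected. In another clustering, each cluster was given the class that held the largest share of its cells in the reported one. UMIs were summed per class and library. A floor of 3 UMIs stood in for 0. Shares of cells were taken after thinning to 3000 UMIs. The alternatives were other library sizes (edgeR 4.0.16, DESeq2 1.42.0), filters, features, resolutions, minimum levels and thinning. Python 3.11.15, numpy 2.4.6, scipy 1.17.1, pandas 2.3.3 and matplotlib 3.10.9 were used, with GENCODE M21 for positions. The scripts for ratios and intervals were tested on simulated data.

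With 1 library for each strain, *mdx* was set against B10, D2-*mdx* against DBA and DBA against B10 without a test. The members, gene lists, markers and alternatives were chosen with earlier results of these data known. Named genes are the members, the listed pathway genes past 2-fold over the myogenic cells in either disease comparison, the highest gene of each list, the 5 genes most like 6 of the members, leading genes of clusters and *Dmd*. Some genes that this rule names are not reported here.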

Additional observations from a re-analysis of the deposited data

Results flagged for a closer look

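Among members with the minimum of 10 CPM in both comparisons and with both counting intervals away from 0, the ratio in disease differed in direction between the backgrounds for 2 in the MuSC-like, myogenic, cycling progenitor-like and pericyte-like cells. For *Bmp4* in MuSC-like cells, the log2 ratio of D2-*mdx* over DBA exceeded that of *mdx* over B10 by 1.33, and over all myogenic cells by 1.38. For *Id3* in cycling progenitor-like cells the difference was -0.96, with *mdx* above B10 and D2-*mdx* below DBA. Each rests on 1 library per strain, and the difference was not tested.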

How the results depend on the processing

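No paired analysis was possible because each strain is a single library and the labels pair no samples. There was likewise no replicate to leave out. Of 560 alternative values of single members, 410 stayed within the counting interval, and of 142 values of members past 2-fold in the reported analysis, 130 were still past 2-fold. These counts include the values at a minimum of 50 CPM and at no minimum, where the ratio equals the reported one by construction. The count of 130 looks at the ratio alone and does not apply the minimum. The cause of the moves below was not tested unless it is the choice itself. Without integration no cluster was named DMD-enriched-like or immunomyoblast-like, so the MuSC-like cells there are another set. In its largest cluster, named MuSC-like, 69.5% of cells were MuSC-like in the reported clustering.

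For *mdx* over B10 in myogenic cells, 2 members were past 2-fold with no minimum level, *Smad6* added as lower. With all cells that passed the filters, or at least 500 genes and no upper limit, 1 member was past 2-fold, but it was *Bmp4* (lower) and not *Id3*, whose log2 ratio was 0.89 and 0.94. In MuSC-like cells 2 were past 2-fold (*Id2* added) with at least 500 genes and no upper limit or in cluster 0 alone, and 0 in cluster 1 alone. With at least 500 genes and no upper limit, a cluster named MuSC-like shared 1110 cells with the reported clustering. Only 51.4% of these were MuSC-like there, so the MuSC-like cells under this filter are another set too. For D2-*mdx* over DBA, 5 were past 2-fold in myogenic cells at the control library's shares of the classes. In place of 5 in MuSC-like cells, 3 were past it without integration, and 3 over all cells, of which 1, *Id4*, was lower. Without integration *Bmp4* was at -0.65 for *mdx* over B10 in MuSC-like cells. Of the other pathway genes, 6 in the reported analysis, 11 were past 2-fold over all cells and 18 with no minimum in *mdx*, and 12 with at least 500 genes and no upper limit and 18 with no minimum in D2-*mdx*. The share of all genes past 2-fold was not taken under the alternatives. The counts of members and of pathway genes there therefore have no share beside them. With no minimum, genes near 0 are called too. The class with the highest level of a member remained in 37 of 40 cases with the members and listed genes left out of the features. Without integration it remained in 35. Some cases could not remain, because their highest class was not named in the other clustering. With the genes left out, no cluster was named differentiating myocyte-like, the highest class for *Smad1* in DBA. Without integration, none was named immunomyoblast-like, the highest class for *Id1*, *Id3* and *Bmp4* in B10 and *Smad6* in *mdx*.

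Low members (*Id4* outside pericyte-like cells, *Smad6*) have wide counting intervals. The clusters on immediate-early level and the control-share weights were chosen after the values were seen.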
